A study of Homo sapiens with 6 samples.

Results

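Small nucleolar RNAs (snoRNAs) are short RNAs of the nucleolus, and the genes described here are those of its main classes, box C/D and H/ACA. Membership followed annotation alone: every gene whose symbol begins with SNORA or SNORD and a number, with a probe set paired with that symbol only. The group itself was chosen with earlier results of these data known. Where a gene had several such probe sets, the brightest on average was used. This gave 176 of the 18377 genes with a single symbol, 115 of them box C/D genes and 61 H/ACA genes, with no filter on level, so that every count below is over all of them unless a smaller group is named. RNA came from 3 samples of cells transfected with GHSROS in the pTargeT expression vector and 3 transfected with that vector left empty, called vector below, and each sample was hybridised to 1 Affymetrix Human Gene array. All were MDA-MB231, a mesenchymal, triple-negative breast cancer cell line. GHSROS is a long noncoding RNA transcribed antisense to the gene of the ghrelin receptor. The labels do not say whether the transfected cells were a pool or a clone, whether GHSROS was kept stably, or whether samples came from separate cultures. The comparison asks which RNA levels differ in cells made to express GHSROS.

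Box C/D snoRNAs pair with ribosomal RNA and guide the methylation of its sugars by fibrillarin, and H/ACA snoRNAs guide the conversion of uridine to pseudouridine by dyskerin. Most human snoRNAs are not transcribed on their own. They are cut from introns of host genes, many of which encode ribosomal proteins or are noncoding RNAs whose spliced product is unstable. A few snoRNAs act in other steps, and families encoded in imprinted clusters are known mainly from the brain. The RNA was extracted with a silica column kit, a type known to retain long RNAs better than short ones, and its recovery of RNAs as short as snoRNAs was not measured. A probe set within an intron reads mature snoRNA and unspliced host RNA alike, and these cannot be told apart here.

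In the RefSeq gene table of assembly GRCh38.p14, the H/ACA genes were 123 to 236 bases long with a median of 134, and the box C/D genes 60 to 205 bases with a median of 81. A larger gene spanned 174 of the 176, and the smallest such gene was taken as the host, without regard to strand, which that table does not give. For 98 snoRNA genes the host was protein-coding, for 74 it was a long noncoding RNA gene and for 2 a transcribed pseudogene. There were 93 different hosts, 19 of them ribosomal protein genes that held 33 snoRNA genes. Host transcripts of this kind are known for starting with a C followed by a run of C and T, the 5′ terminal oligopyrimidine tract that ties their translation to growth signals. A C at most 5 bases from the annotated start, followed without a break by at least 4 more bases that are each C or T, was found in 33 of the 74 hosts held in the RefSeq promoter table (44.6%), in 11 of 12 ribosomal protein hosts (91.7%) and in 21.1% of all 27305 genes of that table. The starts of the hosts of the 5 snoRNA genes with the smallest p between the groups are shown as 20 bases on either side of the annotated start, 5′ to 3′ on the gene's strand, with that C and the run after it in capitals where one was found.
RPL13A, host of SNORD34, chr19:49487588-49487627, plus strand: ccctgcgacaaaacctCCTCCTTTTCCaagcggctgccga
SNHG19, host of SNORD60, chr16:2155339-2155378, minus strand: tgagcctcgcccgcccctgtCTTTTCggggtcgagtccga
EIF5, host of SNORA28, chr14:103334217-103334256, plus strand: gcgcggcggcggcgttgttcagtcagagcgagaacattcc
RPL17, host of SNORD58A, chr18:49492446-49492485, minus strand: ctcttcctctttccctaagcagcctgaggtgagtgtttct
SNHG29, host of SNORD49A, chr17:16438967-16439006, plus strand: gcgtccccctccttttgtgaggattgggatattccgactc
These sequences are RefSeq's, in GRCh38.p14, and depend on where it places the first base. The 11 capitals of RPL13A begin 4 bases before the annotated start, and the bases just before them are also C or T, so the whole run opens further upstream. The 6 capitals of SNHG19 begin at the annotated start. In the windows of EIF5, RPL17 and SNHG29 no such C lay within 5 bases of the start. In those of RPL17 and SNHG29, unlike that of EIF5, a run of C and T lies upstream and ends within 5 bases of the start.

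The deposited values are log2 signals, with array medians between 6.559 and 6.648. The first principal component over all genes held 64.4% of the variance and set GHSROS array 3 and vector array 1, at 29 and 29.6, apart from the other arrays at -22.2 to -4. No probe set is named for GHSROS, so the transfected RNA gave no check of the labels. The line's mesenchymal marker VIM was at 13.07 ± 0.07 in GHSROS and 13.24 ± 0.11 in vector arrays (SD, n = 3 each), and 5 of 6 markers of the line lay above the array medians, all but SPARC. Of 6 epithelial and luminal markers, EPCAM, GATA3 and ERBB2 also lay above the array medians, and PGR, CDH1 and ESR1 below, CDH1 and ESR1 at 5.14 ± 0.18 and 5.15 ± 0.03 in GHSROS and 5.20 ± 0.14 and 5.10 ± 0.07 in vector arrays. Of 7 markers of fibroblasts, blood cells and endothelium, COL1A1 and PDGFRB lay above the array median, and 5 lay below it, among them PTPRC, the pan-leukocyte marker.

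Most snoRNA genes had slightly less signal in the GHSROS arrays, and none passed the test. In limma 0 of 176 had an adjusted p below 0.05, as did 0 of 18377 genes (background 0%), and every adjusted p was 1. The log2 fold change, GHSROS minus vector, was below 0 for 118 snoRNA genes (67%), against 49.1% of all genes, with a median of -0.05 beside 0.002 for all genes. At an unadjusted p below 0.05 there were 5 snoRNA genes, all lower (2.84%), against 1.77% of all genes in either direction, where 0.794% of all genes were lower at that level, and 0 higher, where 0.974% of all genes were. The number at that p was 2 without GHSROS array 1, 9 without GHSROS array 2 and 15 without GHSROS array 3. Without GHSROS array 1, log2 fold changes were below 0 for 104 of 176 (59.1%) beside 50.3% of all genes, and without both arrays that stood apart for 117 (66.5%) beside 52.2%. In RNA from whole cultures, less of an RNA in each cell and fewer cells that hold it cannot be told apart.

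Few snoRNA genes differed by much. A log2 fold change of -0.2 or less was seen for 29 of 176 (16.5%), 17 box C/D and 12 H/ACA genes, against 3.99% of all genes, and one of 0.2 or more for 3 (1.7%), against 3.48% of all genes. The snoRNA genes also varied between arrays of a group. Their median residual SD was 0.17 beside 0.15 for all genes, and the 95% interval of a fold change reached a median of 0.31 on either side. For H/ACA genes these values were 0.21 and 0.36, and for box C/D genes outside the imprinted clusters 0.24 and 0.39.

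**Figure D1:**
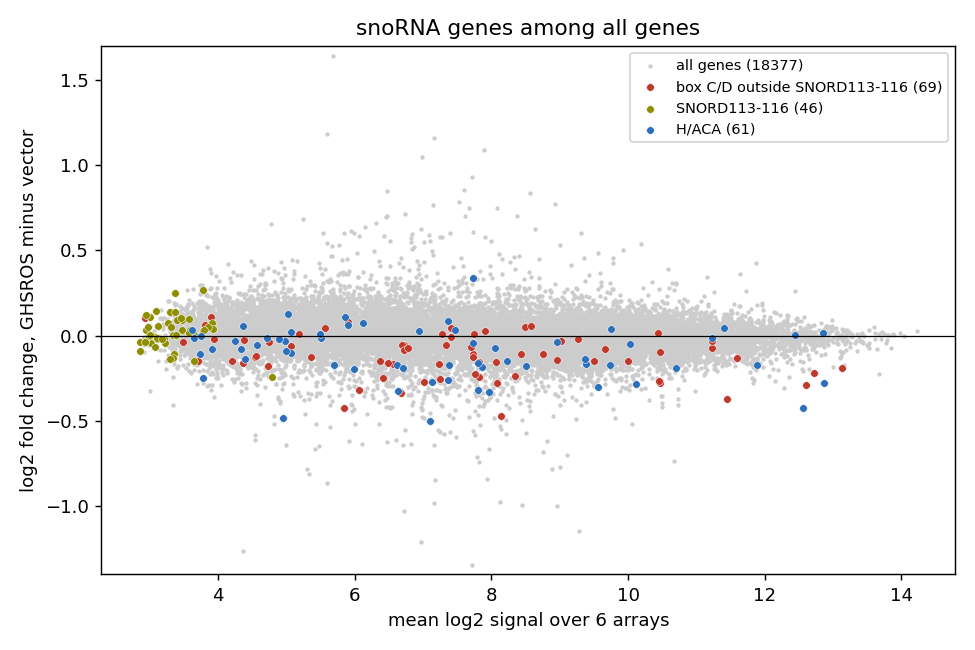
Log2 fold change (GHSROS minus vector, vertical axis) against mean log2 signal over 6 arrays (horizontal axis) for 18377 genes in grey, with box C/D genes outside the imprinted clusters in red, imprinted-cluster genes in olive and H/ACA genes in blue. The olive points sit at the dim end around 0, and 118 of the 176 coloured points lie below 0.

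The 5 snoRNA genes with an unadjusted p below 0.05 were SNORA28, SNORD34, SNORD60, SNORD58A and SNORD49A. SNORA28, an H/ACA guide for small-subunit rRNA read by probe set 7977075 on chromosome 14, had log2 signals of 4.58, 4.84 and 4.71 in the GHSROS arrays and 5.13, 5.28 and 5.16 in the vector arrays. The groups did not overlap, though all 6 values lay below the array medians. The log2 fold change was -0.48 (SE 0.10, 95% interval -0.72 to -0.24), or 1.40-fold lower, at an unadjusted p of 0.00209 and an adjusted p of 1 in limma.

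SNORD34, a box C/D guide for large-subunit rRNA on chromosome 19, had 7.65, 7.98 and 8.08 in the GHSROS arrays and 8.49, 8.26 and 8.36 in the vector arrays. Every GHSROS array lay below every vector array, and GHSROS array 1 lay lowest. Its log2 fold change was -0.47 (SE 0.13, limma unadjusted p = 0.0102). SNORD60, also a guide for large-subunit rRNA, on chromosome 16, had 6.39, 6.44 and 6.72 in the GHSROS arrays and 6.85, 6.84 and 6.86 in the vector arrays, which differed among themselves far less than the GHSROS arrays did. The log2 fold change was -0.33 (SE 0.11, limma unadjusted p = 0.017).

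SNORD58A, a large-subunit guide on chromosome 18, had 5.79, 6.01 and 5.90 in the GHSROS arrays and 6.09, 6.22 and 6.35 in the vector arrays. The gap between the groups was narrow, and the log2 fold change was -0.32 (SE 0.11, limma unadjusted p = 0.0193). SNORD49A, which guides a methylation of large-subunit rRNA and lies on chromosome 17, had 6.96, 6.96 and 6.73 in the GHSROS arrays and 7.25, 7.20 and 7.02 in the vector arrays. Replicate 3 was the lowest of each group, and the log2 fold change was -0.27 (SE 0.11, limma unadjusted p = 0.0402).

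The next 5 lower genes by p also had groups that did not overlap, without reaching an unadjusted p of 0.05. SNORD36B, a small-subunit guide, differed by -0.24 (SE 0.10), SNORD12C by -0.25 (SE 0.11), SNORA74A, also called U19, by -0.32 (SE 0.14, and -0.18 without GHSROS array 1), SNORD13P3 by -0.22 (SE 0.10) and SNORA5A by -0.17 (SE 0.08). In all, the 3 GHSROS arrays lay below the 3 vector arrays for 12 snoRNA genes (6.82%, against 2.44% of all genes), and above them for 2 (1.14%, against 3.06%).

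**Figure D2:**
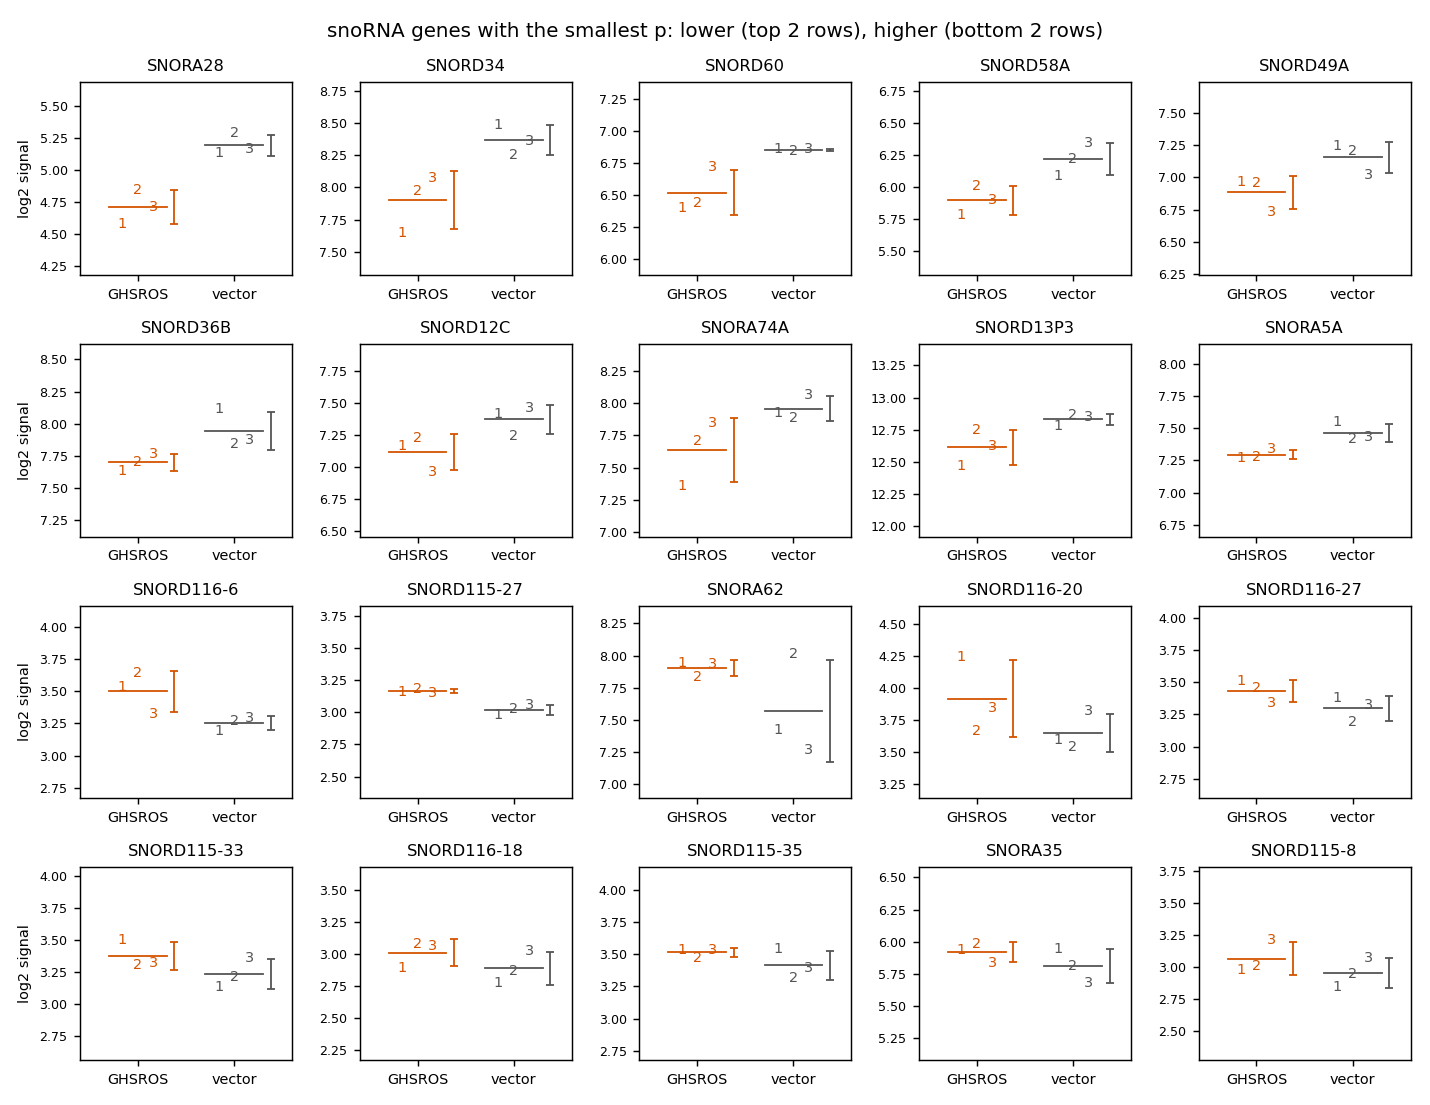
Log2 signal (vertical axes, of equal height in each panel) of the 10 lower and the 10 higher snoRNA genes with the smallest p, with GHSROS arrays left and vector arrays right. Digits are the replicate numbers, lines the group means and bars 1 SD, and in the top 2 rows every GHSROS array lies below every vector array.

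Among the 10 genes with the smallest p above 0, 8 belonged to the imprinted SNORD115 and SNORD116 clusters and lay near the bottom of the signal range. SNORD116-6 had 3.53, 3.64 and 3.33 in the GHSROS arrays and 3.19, 3.27 and 3.29 in the vector arrays, a log2 fold change of 0.25 (SE 0.11, limma unadjusted p = 0.0507). Its symbol also stands, with those of other SNORD116 copies, on 2 probe sets outside the chosen genes, and their plain differences of group means were -0.18 and -0.08. SNORD116-20 differed by 0.27 (SE 0.16), SNORD115-27 by 0.14 (SE 0.08) and SNORD115-33 by 0.14 (SE 0.10), and SNORD116-27, SNORD116-18, SNORD115-8 and SNORD115-35 by between 0.10 and 0.14. Several of these rested on 1 array, SNORD116-20 being at 0.10 and SNORD115-33 at 0.08 without GHSROS array 1. The other two were H/ACA genes. SNORA62 had 7.94, 7.83 and 7.94 in the GHSROS arrays and 7.42, 8.02 and 7.26 in the vector arrays, where vector array 2 was the highest of all 6, for a log2 fold change of 0.34 (SE 0.19), which was 0.56 without vector array 2 and 0.19 without vector array 3. SNORA35, which lies within the serotonin receptor gene HTR2C, differed by 0.11 (SE 0.10).

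The imprinted clusters supplied 46 of the 115 box C/D genes. SNORD115 and SNORD116, 20 genes each, lie on chromosome 15 in a region expressed from the paternal copy and linked to Prader-Willi syndrome, and SNORD115 is known to act on the HTR2C transcript. SNORD113 and SNORD114, here 2 and 4 genes, lie in a maternally expressed cluster on chromosome 14. All 46 had mean signals below the array median, between 2.86 and 4.79, so that whether they are expressed in these cells was not tested. Log2 fold changes ran from -0.24 to 0.27 with a median of 0.02, 28 above 0 and 18 below. After centring each array on its median the split was 24 to 22, and without vector array 1 it was 22 to 24. Copies of a family can be close in sequence and may share probes, so they cannot be counted as independent readings. Their sequences were not compared here.

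Outside these clusters, 100 of 130 snoRNA genes had a log2 fold change below 0, with a median of -0.11. Without GHSROS array 1 this was 81 of 130. Of the 69 box C/D genes among them, 56 were below 0 with a median of -0.12, and 0 reached 0.2; without GHSROS array 1, 47 were below 0. Of the 61 H/ACA genes, 44 were below 0 with a median of -0.08, which became 34 of 61 and -0.01 without GHSROS array 1. Over all 6 arrays the H/ACA fold change farthest below 0 was that of SNORA65, at 6.37, 7.40 and 6.77 in the GHSROS arrays and 7.09, 7.98 and 6.98 in the vector arrays. Its groups overlapped widely, and the log2 fold change of -0.50 had an SE of 0.34 and was -0.19 without vector array 2, where SNORA28 was at -0.43. The split differed with signal. At or above the array median of 6.59, 65 of 80 snoRNA genes were below 0 with a median of -0.15. Of the 11360 genes of all kinds at that level 53.8% were, with a median of -0.01. Below the array median, with the imprinted clusters counted in, 53 of 96 snoRNA genes were below 0 with a median of -0.01. Outside the clusters 35 of 50 such dimmer genes were, with a median of -0.05. Of all genes below the array median 41.6% were below 0, with a median of 0.02. Without GHSROS array 1, 52 of the 80 brighter genes were below 0 and their median was -0.07.

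**Figure D3:**
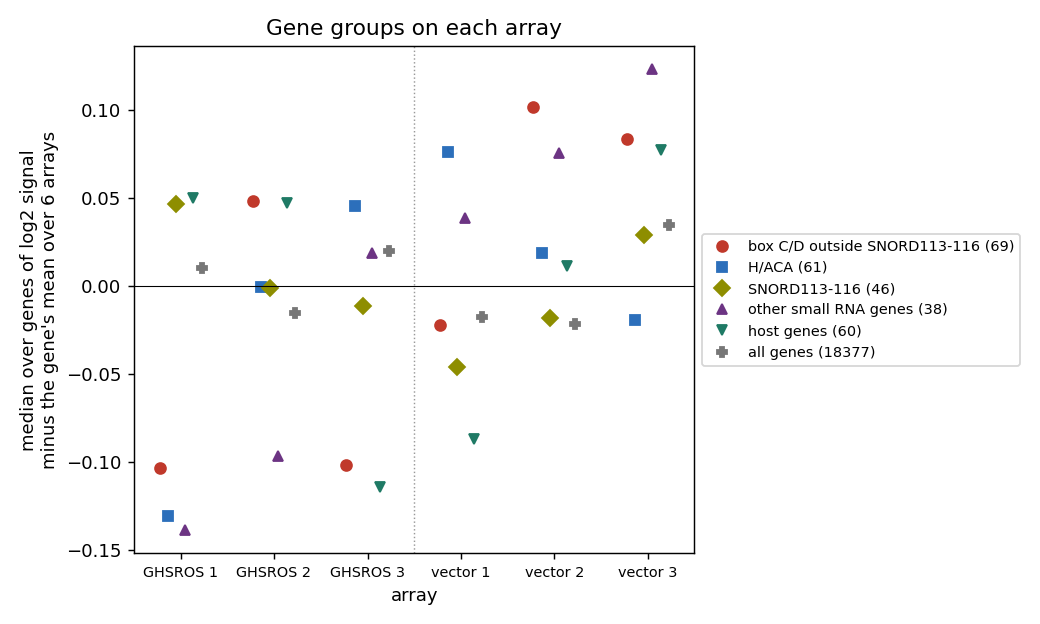
Median over the genes of a group of the log2 signal minus each gene's mean over 6 arrays (vertical axis), for the 3 GHSROS arrays left and the 3 vector arrays right. H/ACA genes were at -0.13 on GHSROS array 1 and box C/D genes outside the imprinted clusters at -0.10 on GHSROS arrays 1 and 3, while host genes were at 0.05 and -0.11 on those arrays.

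Arrays did not contribute evenly. Of the 130 snoRNA genes outside the imprinted clusters, 60 had their lowest value on GHSROS array 1 and 33 on GHSROS array 3, against 11 on GHSROS array 2 and 13, 5 and 8 on vector arrays 1, 2 and 3. Over all genes the lowest value fell on GHSROS array 1 for 2448 of 18377, the fewest of any array. The median deviation of box C/D genes outside the clusters was -0.10, 0.05 and -0.10 on the GHSROS arrays and -0.02, 0.10 and 0.08 on the vector arrays. For H/ACA genes it was -0.13, -0.0006 and 0.05 on the GHSROS arrays and 0.08, 0.02 and -0.02 on the vector arrays. The classes had opposite signs on GHSROS arrays 2 and 3 and on vector arrays 1 and 3.

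The hosts were nearly evenly split. Of the 60 hosts measured through a probe set of their own symbol, 28 had a log2 fold change above 0 and 32 below, with a median of -0.007, which was 0.01 after quantile normalization, -0.02 without vector array 1 and 0.02 without vector array 3. None reached an unadjusted p of 0.05, with fold changes from -0.19 to 0.17. For the 79 snoRNA genes with a measured host, the snoRNA gene's log2 fold change lay below its host's in 62, by a median of -0.11. Across these 79 pairs, which share arrays and in part hosts, snoRNA and host fold changes had a Pearson correlation of 0.01 and a Spearman correlation of 0.04. EIF5, a translation initiation factor and the host of SNORA28, differed by -0.04. RPL17, host of SNORD58A, differed by 0.09 and SNHG29, host of SNORD49A, by -0.09. Of the hosts of the next 5 lower genes, RPL7A differed by -0.10 for SNORD36B, ZFAS1 by -0.02 for SNORD12C, TBRG4 by -0.13 for SNORA5A and KIF9 by 0.004 for SNORD13P3. Of the hosts of the higher genes named by p, HTR2C differed by -0.06 (SE 0.10) for SNORA35. The hosts RPL13A, SNHG19 and SNHG4 of lower genes, and RPSA, SNHG14 and LOC128966705 of higher genes, were not analysed here.

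**Figure D4:**
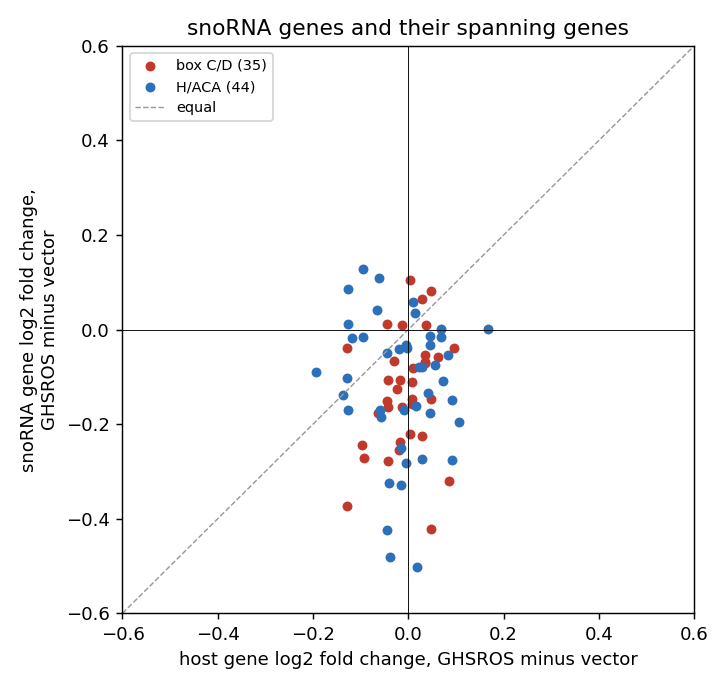
Log2 fold change of each snoRNA gene (vertical axis) against that of the gene spanning it (horizontal axis), both GHSROS minus vector, for 79 pairs, box C/D genes in red and H/ACA genes in blue. Points below the dashed line of equality are the 62 pairs in which the snoRNA gene lay lower than its host.

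By kind of host, 29 of 33 snoRNA genes within ribosomal protein genes were below 0 (median -0.16), as were 50 of 65 within other protein-coding genes (median -0.07) and 18 of 28 within noncoding hosts outside the imprinted clusters (median -0.05). Without vector array 3 the last of these was 13 of 28 with a median of 0.02, and without GHSROS array 1 the first was 25 of 33 (median -0.10) and the second 35 of 65 (median -0.01). RPL13A, a ribosomal protein gene on chromosome 19, holds SNORD32A, SNORD33, SNORD34 and SNORD35A, and all 4 were below 0, between -0.47 and -0.27. SNORD33, a small-subunit guide, had 12.08, 12.56 and 12.75 in the GHSROS arrays and 12.75, 12.78 and 12.72 in the vector arrays, a log2 fold change of -0.29 (SE 0.17). SNORD32A had 9.97, 10.40 and 10.62 in the GHSROS arrays and 10.70, 10.57 and 10.55 in the vector arrays. All 4 were lowest on GHSROS array 1 and, other than SNORD34, reached the vector range on GHSROS array 3. Without GHSROS array 1 their median was -0.11, beside -0.28 with it, and all 4 stayed below 0.

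GAS5, a noncoding host on chromosome 1 known for its rise in growth arrest, holds 7 of the snoRNA genes, and 3 had fold changes above 0 and 4 below, all between -0.12 and 0.06. Without vector array 3, 6 of the 7 were above 0. Within that narrow range the genes moved in different ways across arrays. SNORD75 had 8.25, 8.32 and 7.21 in the GHSROS arrays and 7.29, 7.98 and 8.43 in the vector arrays. SNORD78 had 8.69, 8.81 and 8.06 in the GHSROS arrays and 8.12, 8.51 and 8.78 in the vector arrays, and SNORD77 likewise was lowest on GHSROS array 3 and vector array 1. These are the arrays that stood apart over all genes, and whether the pattern belongs to what set them apart was not tested. SNORD74, from the same host, had 10.22, 10.52 and 10.52 in the GHSROS arrays and 10.60, 10.41 and 10.56 in the vector arrays and did not dip on those arrays. SNORD81 was lowest on GHSROS array 3, at 8.36, with the vector arrays at 8.51, 8.48 and 8.64. SNORD79 was lowest of each group on GHSROS array 3 and vector array 1, at 7.63 and 7.61, by small margins. The log2 fold changes of SNORD81 and SNORD79 were 0.06 (SE 0.13) and -0.12 (SE 0.15).

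**Figure D5:**
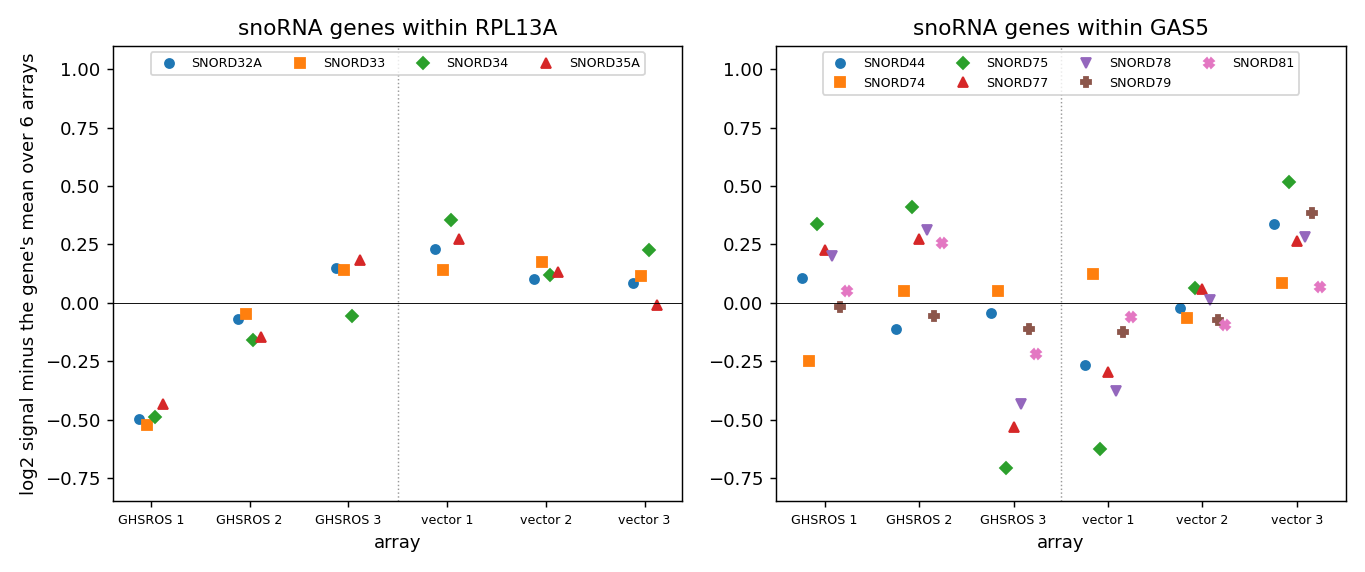
Log2 signal minus each gene's mean over 6 arrays (vertical axes) for the snoRNA genes within RPL13A (left panel) and GAS5 (right panel), GHSROS arrays left and vector arrays right of the dotted line. The 4 RPL13A genes lie together and lowest on GHSROS array 1, while SNORD75, SNORD77 and SNORD78 of GAS5 are low on GHSROS array 3 and vector array 1.

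SNORD13, or U13, has its own promoter on chromosome 8 and serves in the acetylation of small-subunit rRNA. It had the highest mean signal of the snoRNA genes, with 12.92, 13.13 and 13.04 in the GHSROS arrays and 13.14, 13.30 and 13.23 in the vector arrays. The groups were apart by a small margin, and the log2 fold change was -0.19 (SE 0.09, limma unadjusted p = 0.0806). SNORD13P3, a pseudogene copy on chromosome 3, had 12.47, 12.75 and 12.62 in the GHSROS arrays and 12.78, 12.87 and 12.85 in the vector arrays. Its 6 arrays stood in the same order as those of U13, whose sequence is so close that the probe sets may read both RNAs. The copies SNORD13P1 and SNORD13P2 were dim, with fold changes of 0.11 (SE 0.11) and -0.18 (SE 0.41). Among the 176 genes, SNORD14C and SNORD14E, copies of U14, a snoRNA known for rRNA cleavage, differed by -0.15 (SE 0.34) and 0.01 (SE 0.28). The other cleavage snoRNAs described here were read only by probe sets that carry several symbols, outside the 176 genes and the fit. U3, the box C/D snoRNA of the first cuts of the rRNA precursor, is named with all its copies (SNORD3A to SNORD3D) on 5 probe sets whose values were identical on every array. They were at 10.44, 10.82 and 10.87 in the GHSROS arrays and 10.93, 11.18 and 11.04 in the vector arrays, so that the groups did not overlap, and the plain difference of means was -0.34. The probe set naming SNORA73A, or U17, with its host SNHG3 differed by -0.07, and that naming SNORD22 with SNHG1 by -0.06, both with overlapping groups. U8 was not analysed here.

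Spread between arrays differed widely among the snoRNA genes. SNORA14A had the largest SD over 6 arrays, 0.96, with 7.07, 5.48 and 7.05 in the GHSROS arrays and 7.99, 5.62 and 6.50 in the vector arrays. SNORA23, SNORD13P2, SNORA65 and SNORA2A followed at 0.54 to 0.60. SNORA23, within the nuclear import gene IPO7, had 11.96, 12.11 and 12.98 in the GHSROS arrays and 13.55, 12.32 and 12.46 in the vector arrays, so that its log2 fold change of -0.42 carried an SE of 0.39 and was -0.04 without vector array 1. SNORA2A had 4.46, 6.03 and 4.78 in the GHSROS arrays and 5.17, 4.88 and 4.83 in the vector arrays, with GHSROS array 2 far above the rest, and SNORD13P2 stood highest on replicate 2 of both groups. The steadiest were SNORA14B (SD 0.03), SNORD115-38, SNORA5B, SNORD115-28 and SNORD114-6 (0.06), all of them at mean signals below the array median. SNORD115-4 had the lowest mean signal, 2.82 ± 0.03 in GHSROS and 2.91 ± 0.08 in vector arrays (SD, n = 3 each).

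The proteins that act with snoRNAs showed no difference that passed the test. Fibrillarin (FBL), the methyltransferase of box C/D particles, was at 12.10 ± 0.11 in GHSROS and 12.23 ± 0.17 in vector arrays (SD, n = 3 each), and NOP58, a core protein of the same particles, at 10.75 ± 0.35 in GHSROS and 10.69 ± 0.36 in vector arrays. The other core proteins of that class, NOP56 and SNU13, were not analysed here. Of the H/ACA core proteins, the pseudouridine synthase DKC1 differed by 0.08 (SE 0.27), GAR1 by 0.07 (SE 0.20), NHP2 by 0.003 (SE 0.20) and NOP10 by -0.07 (SE 0.10). The median of these 4 was 0.04, and it was -0.08 without GHSROS array 1. Among 13 genes of snoRNP assembly and transport, 6 were above 0 and 7 below (median -0.02, and 0.09 without vector array 3), with SHQ1, a chaperone of dyskerin, at 0.11 (SE 0.21), RPAP3 at 0.07 (SE 0.14), RUVBL2 at -0.19 (SE 0.21) and PIH1D1 at -0.15 (SE 0.10). Of 9 genes of debranching and trimming, 4 were above and 5 below (median -0.002, and 0.02 after quantile normalization), with MTREX at 0.07 (SE 0.16), XRN2 at 0.05 (SE 0.13), DIS3 at -0.09 (SE 0.10) and EXOSC4 at -0.06 (SE 0.19). RNA polymerase I and its factors, which make the rRNA precursor, were above 0 in 3 and below in 11 of 14 (median -0.02), but 7 were on each side after quantile normalization and 10 above 0 without vector array 3, with TAF1A at 0.10 (SE 0.33), TAF1B at 0.07 (SE 0.13), POLR1C at -0.18 (SE 0.10) and POLR1G at -0.15 (SE 0.23). None of these genes reached an unadjusted p of 0.05.

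Other small noncoding RNA genes were also mostly lower in the GHSROS arrays, with none past the test. Of 38 genes for spliceosomal, Cajal body, vault and Y RNAs, the RNAs of RNase P, RNase MRP and telomerase and, by the same symbol prefix, the U105 snoRNA genes RNU105B and RNU105C, 33 had a log2 fold change below 0 (86.8%, against 49.1% of all genes), with a median of -0.15, and 0 passed. Without the U105 genes this was 32 of 36, with a median of -0.17. At an unadjusted p below 0.05 there was 1, against 1.77% of all genes in either direction, the U5 gene RNU5D-1 at -0.65 (SE 0.26, limma unadjusted p = 0.041), and the next largest below 0 was VTRNA1-1, a vault RNA gene, at -0.53 (SE 0.31). The largest above 0 were RNY1 at 0.25 (SE 0.11) and SCARNA17 at 0.17 (SE 0.11). Their median deviation was -0.14, -0.10 and 0.02 on the GHSROS arrays and 0.04, 0.08 and 0.12 on the vector arrays, so GHSROS array 1 was again the lowest. Without GHSROS array 1, 28 of 38 were below 0 with a median of -0.12. The part of the other small RNAs, and of array 1 of the GHSROS group, in the snoRNA result was not tested. Per the labels every RNA passed a minimum of integrity, and no value per sample is given.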

How the data were processed

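The authors deposited log2 values for each probe set of 6 Affymetrix arrays. The submitters' processing notes name RMA, without version or settings. RMA normalizes arrays to each other, which hides a shift common to most genes. Of 28869 probe sets, 19310 carried 1 symbol in the platform annotation, 1752 several and 7807 none. The brightest probe set per gene was kept, leaving 18377 genes, and 0 array columns were left out. All 176 snoRNA genes matched the RefSeq table (GRCh38.p14), which gave chromosomes, lengths and spanning genes. GHSROS was compared with vector with limma 3.58.1 under R 4.3.3 (two-sided, lmFit and eBayes), with Benjamini-Hochberg adjustment over all genes and a threshold of 0.05. The script was tested on simulated data. Array values carry no depth, and 3 arrays a group limit the precision. Since no label says that samples came from separate cultures, the p-values rest on a spread between samples that may be technical. The gene group and all lists were chosen with earlier results of these data known. Of the snoRNA genes, the text names the 10 lower and 10 higher with the smallest p, all with an unadjusted p below 0.05, those of rRNA cleavage, those with the highest and lowest signal, the 5 with the largest and the 5 with the smallest SD, and the hosts of those named by p. Genes within RPL13A and GAS5 outside that rule, and SNORD14C and SNORD14E, were chosen after their values were seen. Alternatives were the replicate block, quantile normalization, median centring, level filters at the median and the 25th percentile, other probe set rules, an intensity trend, array weights and leaving out each array.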

Additional observations from a re-analysis of the deposited data

How the results depend on the processing

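In limma, 0 genes and 0 snoRNA genes passed an adjusted p of 0.05 in all 16 alternatives run. The number of snoRNA genes at an unadjusted p below 0.05 was 5 as reported. It was 1 among genes at or above the median of the gene means, where 58 snoRNA genes remained. That median, 7.54, is higher than the array median used above. The number was 8 with an intensity trend and robust prior and 20 with array weights. It was 14 without vector array 1 and GHSROS array 3 (added once the values were known), and 2 to 15 with single arrays left out. Over all genes that count was 179 higher and 146 lower, against 467 and 410 with array weights and 107 and 84 without GHSROS array 1. Level filters, set on the gene means, left fewer snoRNA genes. At or above the median of the gene means, 10 of 58 were higher and the median log2 fold change was -0.146. At or above their 25th percentile, these were 19 of 92 and -0.15. With single arrays left out 53 to 73 of 176 were higher and the median ran from -0.0906 to -0.0321. Centring on medians gave 50 higher and 126 lower.

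The labels do not say whether replicate numbers pair the samples. Deviations from the group means correlated at -0.714, 0.504 and -0.669 for same-numbered arrays, and only the pair numbered 2 correlated best with its own number. GHSROS array 3 correlated with vector array 1 at 0.831, and GHSROS array 1 with vector array 3 at 0.738. What the arrays of these pairs share was not tested. With the number as a replicate block, 0 genes passed and 6 snoRNA genes had an unadjusted p below 0.05.

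Of 470 values of 32 named genes, 18 turned sign, in 8 genes: SNORA5B to -0.00334 after quantile normalization, SNORD115-38 to -0.00713 after median centring, SNORA14A to 0.296 with array weights, and without both arrays that stood apart SNORD115-8 to -0.0179, SNORA14A to 0.216 and SNORD115-38 to -0.0167. With single arrays left out, SNORD115-8 ran from 0.0372 to 0.169, SNORA14A ran from -0.711 to 0.475, SNORD13P2 from -0.514 to 0.225, SNORA2A from -0.342 to 0.445, SNORA14B from -0.00347 to 0.0318, SNORD114-6 from -0.0544 to 0.0352 (-0.059 without both arrays that stood apart), SNORD115-38 from -0.0164 to 0.0393 and SNORA5B from -0.0117 to 0.0546. Beyond the numbers of genes and arrays, the cause was not tested.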

Other observations

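A further 74 probe sets name a snoRNA gene together with other symbols and so lay outside the genes described. Their plain log2 difference, GHSROS minus vector, was below 0 in 49 (66.2%, against 49.1% of all genes) with a median of -0.06, and the groups did not overlap in 10, all lower (2.44% of all genes were apart and lower, 3.06% apart and higher). Many hold the same reading: counting probe sets with identical values once left 61, of which 42 were below 0 and 6 apart, since 5 of the 10 are 1 reading of U3. Of the 23 that name snoRNA genes only, 15 were below 0 and the groups were apart in 7, or 8 and 3 of 13 distinct readings, and of the 51 that also name another gene, 34 were below 0 and the groups were apart in 3. SNORA10 was read by 2 probe sets with identical values on every array, and SNORA15 by 3, of which 2 were identical.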
